A study of Mus musculus with 20 samples.

Results

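The effect of Yap1 deletion was compared between culture conditions, gene by gene, as its effect in differentiating cultures minus its effect in proliferating cultures. The cells were neural stem cells grown from adult mouse spinal cord, and their RNA was sequenced. They came from a mouse model with a Yap1 allele whose exon 3 is removable by Cre recombinase. The 4 groups were Yap1 KO and WT cells after 5 days of differentiation and KO and WT neurospheres (floating spheres of stem and progenitor cells) after 7 days of proliferation with EGF, FGF2 and heparin. The KO was made in culture with an adenovirus expressing Cre from the CMV promoter, which is active in most cell types. The labels give the same treatment text for KO and WT samples, and they do not state whether WT cells were infected or carried the allele. Of 20 labelled samples, 8 were analysed, the libraries numbered 7 and 8 of each group (n = 2 per group), and the other 12 were not analysed here. The labels do not tie the libraries to separate animals or cultures, and the p-values below reflect the spread among these libraries alone, which can be technical.

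YAP1 is a transcriptional co-activator that the kinases of the Hippo pathway hold in the cytoplasm. In the nucleus it works mainly through TEAD factors, and its paralog TAZ, encoded by Wwtr1, can act at the same genes. In the nervous system YAP1 is known for its activity in neural progenitors and in astrocytes, and removal of EGF and FGF2 from neural stem cells stops division and favours astrocyte and oligodendrocyte fates.

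The difference was computed as (KO over WT in differentiation) minus (KO over WT in proliferation) on the log2 scale, and is called the log2 difference below. A negative value means that the KO level relative to WT was lower in differentiation than in proliferation, whichever of both effects carried it. The model set each KO library against the WT library of the same number and condition, which is called the block. CPM are counts scaled to 1e6 of the TMM-scaled library size, and a difference was called at an adjusted p (Benjamini-Hochberg over 13046 tested genes of 16927 listed) under 0.05 in edgeR's quasi-likelihood test.

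The 8 libraries had total counts between 18075595 and 18940983, so depth was nearly equal. Culture condition made the first principal component of log2 CPM (81.9% of the variance), and the second (10.7%) parted the libraries numbered 7 from those numbered 8. Across tested genes, which are not independent replicates, the 7-minus-8 deviations of KO and WT correlated at 0.703 in differentiation and 0.784 in proliferation. Neural stem cell genes summed to 4743 to 6915 CPM per library over 17 tested genes, and the 21 tested astrocyte markers to 24490 and 24570 CPM in KO differentiation, 28860 and 27300 CPM in WT differentiation, 5263 and 4175 CPM in KO proliferation and 5155 and 4823 CPM in WT proliferation. Of 8 microglial markers in the table, Ptprc had no count in any library. In these bulk cultures, fewer cells of a type and less RNA per cell cannot be told apart.

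Yap1, the deleted gene (gene ID 22601, chromosome 9, 7931999 to 8009565, GRCm38), was low in KO libraries of both conditions. It stood at 22.6 and 27.8 CPM in KO and 107 and 93.7 CPM in WT libraries 7 and 8 of differentiation, and at 27.0 and 32.7 CPM in KO and 170.5 and 150.4 CPM in WT libraries of proliferation. KO and WT libraries did not overlap in either condition, and the KO mean was 25.1% of the WT mean in differentiation and 18.6% of it in proliferation. For Yap1 the log2 difference was 0.43 ± 0.20 (SE; edgeR adjusted p = 0.357), so the depth of the Yap1 reduction did not pass the test as different between conditions. The deletable exon lies at chr9:7973796-7973911 on the minus strand (GRCm38, transcript Yap1-202, shared by 6 annotated transcripts) and spans 116 bases, a length that leaves a remainder of 2 when divided by 3. It is shown because it is the stretch that the KO removes.
Yap1 exon 3: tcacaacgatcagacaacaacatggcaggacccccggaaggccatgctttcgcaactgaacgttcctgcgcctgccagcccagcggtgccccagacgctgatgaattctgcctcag

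Counts were taken over the gene as a whole and do not tell intact transcripts from those without this exon. Wwtr1 stood at 68.4 and 75.3 CPM in KO and 114 and 97.3 CPM in WT differentiation, without overlap, and at 98.7 and 107 CPM in KO and 92.5 and 101 CPM in WT proliferation, where the groups overlapped. Its log2 difference was -0.64 ± 0.15 (SE) and did not pass (edgeR adjusted p = 0.120).

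The KO effect differed between conditions for 38 genes. For 5 of them it was higher in differentiation than in proliferation (Hbegf, Lss, Fdps, Rpl29 and Igsf9b) and for 33 it was lower, led by Ndrg1, Serpina3n, Ssc5d and Tm4sf1. The 38 genes are 0.291% of the genes tested, with 0.0383% called higher and 0.253% called lower, and 791 higher (6.06%) and 1125 lower genes (8.62%), 14.7% together, had an unadjusted p under 0.05. All these calls rest on the block. In the same edgeR test without it, 0 genes passed in either direction (209 higher and 349 lower by unadjusted p), and with 1 block per number shared by both conditions 0 passed as well (424 higher and 719 lower). The sign of the log2 difference was the same in all 38 genes under both of those fits, with adjusted p from 0.981 to 1 without the block and from 0.197 to 0.655 with the shared block. The labels do not say that a number marks a shared culture, animal or day. With the block kept, leaving out 1 library at a time gave 23 to 905 higher and 93 to 949 lower genes. The counts were largest without a differentiation library numbered 8, with 858 higher and 949 lower genes without the KO one and 905 and 895 without the WT one. Leaving out a library leaves its condition with 1 pair, so that the residual spread comes from the other condition alone. All 5 higher genes and 30 to 33 of the 33 lower genes were called in each of the 8 cases, which with such counts is no sign of stability.

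The KO effect had opposite signs in the 2 conditions in 35 of the 38 genes, against 55.3% of all tested genes. This share follows in part from choosing genes by the difference, so it was not tested. Of the 33 lower genes, KO was itself lower than WT by the test in differentiation in 21 and higher than WT by the test in proliferation in 9, with 1 gene, Thrsp, in both counts and 4 in neither. In the whole table KO against WT gave 45 higher and 188 lower genes in differentiation (1.79% of tested genes, with 1.44% lower) and 43 higher and 24 lower genes in proliferation (0.514%, with 0.33% higher). KO and WT libraries of differentiation did not overlap in 28 of the 33 lower genes and in 4 of the 5 higher genes, against 31.5% of all tested genes, counts that follow in part from choosing genes by these same libraries. In proliferation they did not overlap in 16 of the 33 and 1 of the 5, against 30.3%.

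**Figure D1:**
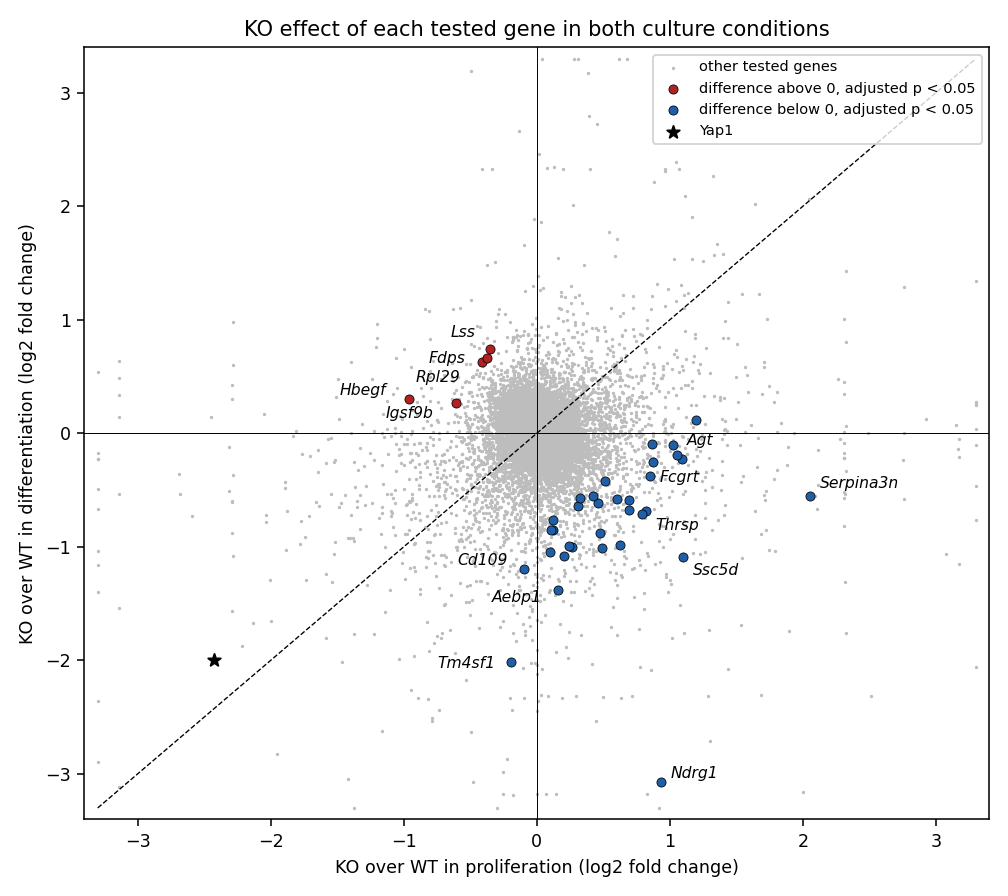
KO effect of each tested gene in proliferation (x axis, log2 fold change KO over WT) and in differentiation (y axis, same unit), 1 point per gene, with the 5 genes called higher in red, the 33 called lower in blue and Yap1 as a star. The dashed line marks equal effects, and larger values are drawn at the edge. The red points lie at the upper left, with KO above WT in differentiation and below it in proliferation, and 30 of the 33 blue points lie at the lower right.

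For Serpina3n and Agt, which astrocytes are known to secrete, the larger KO effect was the higher level in proliferation. Serpina3n, a serine protease inhibitor known as a marker of reactive astrocytes (gene ID 20716, chromosome 12, 104406646 to 104414334), had 38.7 and 28.0 CPM in KO and 56.0 and 41.5 CPM in WT differentiation. In proliferation it had 48.6 and 7.31 CPM in KO and 10.5 and 2.23 CPM in WT. KO was thus below WT in both differentiation libraries without overlap, and above WT within each number in proliferation, where the number 7 libraries were several times higher than the number 8 libraries and the groups overlapped. Its log2 difference of -2.60 ± 0.19 (SE; edgeR adjusted p = 0.0032) had the smallest adjusted p of all genes. Most of it came from proliferation, where KO was higher by 2.06 on the log2 scale (edgeR adjusted p = 0.0016), against -0.55 in differentiation (edgeR adjusted p = 0.0552).

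Agt encodes angiotensinogen, the precursor of angiotensin peptides, which astrocytes make in the central nervous system (gene ID 11606, chromosome 8, 124556587 to 124569706). It had 936 and 874 CPM in KO and 1048 and 1012 CPM in WT differentiation, and 23.0 and 25.6 CPM in KO and 11.0 and 12.5 CPM in WT proliferation. The groups did not overlap in either condition, and KO lay on the low side in differentiation and on the high side in proliferation. The log2 difference was -1.24 ± 0.14 (SE; edgeR adjusted p = 0.0201), made of 1.05 in proliferation, which passed (edgeR adjusted p = 0.0049), and -0.19 in differentiation, which did not (edgeR adjusted p = 0.303). Agt was 37.2-fold higher in differentiation than in proliferation in KO cells and 87.9-fold higher in WT cells.

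Thrsp, a nuclear protein known for promoting lipid synthesis (gene ID 21835, chromosome 7, 97412933 to 97417550), was the gene called in both conditions with opposite directions. It had 247 and 287 CPM in KO and 392 and 467 CPM in WT differentiation, against 9.23 and 33.0 CPM in KO and 4.87 and 19.5 CPM in WT proliferation. KO over WT was -0.68 in differentiation and 0.82 in proliferation on the log2 scale, and both passed (edgeR adjusted p = 0.0104 and 0.0174). The log2 difference was -1.50 ± 0.14 (SE; edgeR adjusted p = 0.0102).

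**Figure D2:**
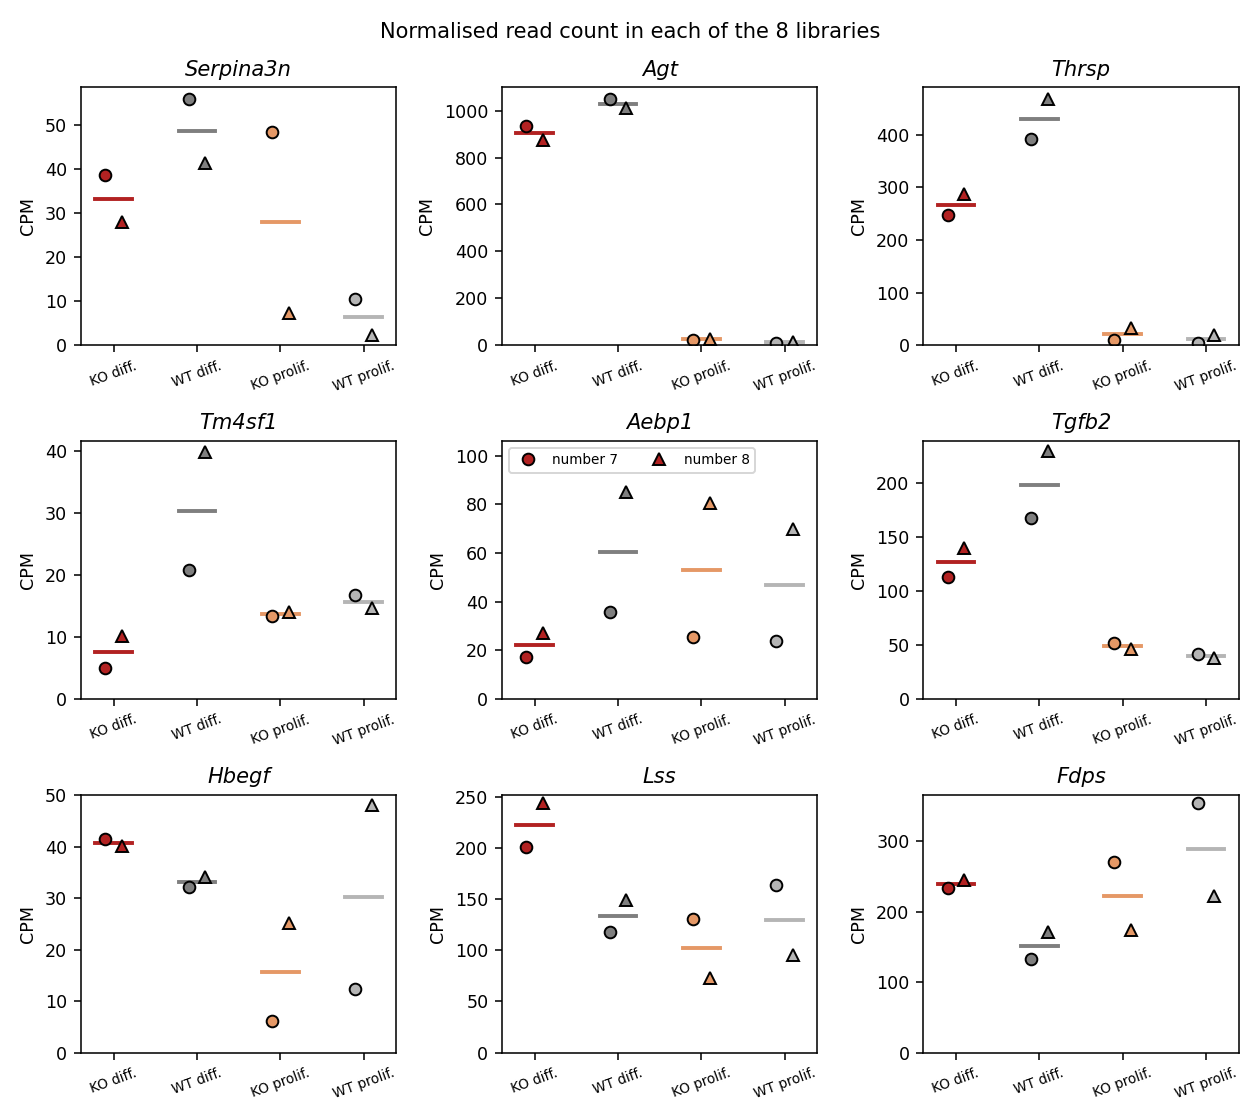
Normalised read count (CPM, linear axes from 0) of 9 genes in each of the 8 libraries, with circles for number 7, triangles for number 8 and bars for the mean of a group (n = 2), in the order KO differentiation, WT differentiation, KO proliferation and WT proliferation. Serpina3n, Agt, Thrsp and Tgfb2 lie lower in KO than in WT differentiation and higher in KO than in WT proliferation within each number, while Lss, Fdps and Hbegf show the opposite arrangement.

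In 20 of the 33 lower genes the KO effect was called in differentiation alone, where KO was lower, against 8 called in proliferation alone. In some of the 20, such as Tm4sf1, the difference in proliferation was small. Tm4sf1, a tetraspanin-like membrane protein (gene ID 17112, chromosome 3, 57285611 to 57387812), had 5.01 and 10.1 CPM in KO and 20.8 and 40.0 CPM in WT differentiation, and 13.3 and 14.1 CPM in KO and 16.8 and 14.6 CPM in WT proliferation. The differentiation groups were far apart without overlap, while the KO libraries of proliferation lay just below those of WT. KO over WT was -2.01 on the log2 scale in differentiation (edgeR adjusted p = 0.0019) and -0.19 in proliferation (edgeR adjusted p = 0.691), giving a log2 difference of -1.82 ± 0.19 (SE; edgeR adjusted p = 0.0201).

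Tgfb2, the ligand TGF-beta 2 and a gene of the YAP/TAZ-TEAD list (gene ID 21808, chromosome 1, 186622787 to 186709697), had 113 and 140 CPM in KO and 168 and 229 CPM in WT differentiation. It had 51.4 and 46.0 CPM in KO and 41.1 and 37.4 CPM in WT proliferation. No groups overlapped, with KO lower in differentiation (-0.64, edgeR adjusted p = 0.014) and on the high side in proliferation (0.31, edgeR adjusted p = 0.214). Its log2 difference was -0.95 ± 0.12 (SE; edgeR adjusted p = 0.0273).

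Aebp1, a collagen-binding protein of the extracellular matrix, had 17.1 and 26.9 CPM in KO and 35.7 and 84.9 CPM in WT differentiation, against 25.5 and 80.4 CPM in KO and 23.7 and 69.8 CPM in WT proliferation. The KO differentiation libraries were below WT without overlap, while in proliferation the spread between numbers was larger than that between genotypes. Its log2 difference was -1.54 ± 0.20 (SE; edgeR adjusted p = 0.0273). Of the passed genes outside the rule for named genes, chosen here after their values were seen, Cd109 (a membrane protein that binds TGF-beta) was carried by differentiation in the same way, with 120 and 164 CPM in KO and 287 and 360 CPM in WT differentiation and 355 and 467 CPM in KO and 410 and 462 CPM in WT proliferation. So were Gsn (gelsolin, which severs actin filaments), Stom (stomatin, a membrane scaffold), Timp2 (an inhibitor of matrix metalloproteinases), Tspan4 (a tetraspanin), Ehd2 (a caveola-associated ATPase), Myadm, and 2900026A02Rik, all called lower in KO in differentiation with log2 values from 0.10 to 0.26 in proliferation, none of them called there.

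Other lower genes were carried by proliferation, where KO was higher. Fcgrt, the neonatal Fc receptor, had 101 and 63.6 CPM in KO and 105 and 83.7 CPM in WT differentiation, which overlapped, and 16.9 and 12.8 CPM in KO and 8.47 and 5.53 CPM in WT proliferation, which did not. Its log2 difference was -1.32 ± 0.18 (SE; edgeR adjusted p = 0.0315). Cntn1, the adhesion molecule contactin 1 and a listed marker of oligodendrocyte precursors, had 242 and 336 CPM in KO and 251 and 369.5 CPM in WT differentiation, and 52.1 and 69.7 CPM in KO and 27.0 and 40.2 CPM in WT proliferation. KO was higher by 0.87 in proliferation (edgeR adjusted p = 0.0061) and stood at -0.10 in differentiation (edgeR adjusted p = 0.600), for a log2 difference of -0.96 ± 0.12 (SE; edgeR adjusted p = 0.0273).

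Fosl2, Efhd1 and Pgm5, outside the rule for named genes, chosen after their values were seen, were carried by proliferation as well. Fosl2 encodes a Fos-family transcription factor, Efhd1 a mitochondrial calcium-binding protein and Pgm5 the adhesion-junction protein aciculin. Their KO over WT was between 0.85 and 1.02 on the log2 scale in proliferation and between -0.37 and -0.11 in differentiation. Fosl2 had 31.3 and 26.3 CPM in KO and 37.8 and 36.5 CPM in WT differentiation, against 70.0 and 42.0 CPM in KO and 35.6 and 25.7 CPM in WT proliferation, and no groups overlapped within a condition. The log2 difference of Fosl2 was -1.22 ± 0.16 (SE; edgeR adjusted p = 0.0273).

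In the remaining named lower genes KO lay below WT in differentiation and above it in proliferation. Ndrg1, a stress- and hypoxia-responsive gene, had the largest size among the passed genes but low counts, with 0.398 and 0.857 CPM in KO and 5.27 and 5.36 CPM in WT differentiation, and 2.46 and 20.9 CPM in KO and 2.49 and 7.49 CPM in WT proliferation. Its KO differentiation libraries were below 1 CPM and those of WT above 5, while in proliferation the number 7 libraries were nearly equal and the number 8 libraries were apart. That gave a log2 difference of -4.00 ± 0.57 (SE; edgeR adjusted p = 0.0355), which did not pass without KO differentiation 7 or without WT differentiation 7 (highest edgeR adjusted p = 0.0986). The other 22 genes of the glycolysis and hypoxia list did not pass.

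Parp3, a DNA-damage ADP-ribosyltransferase, had 21.5 and 18.7 CPM in KO and 43.2 and 37.5 CPM in WT differentiation and 13.0 and 10.6 CPM in KO and 9.16 and 7.60 CPM in WT proliferation. Txnip, which binds thioredoxin and limits glucose uptake, had 60.3 and 39.7 CPM in KO and 98.4 and 64.8 CPM in WT differentiation and 10.7 and 8.40 CPM in KO and 6.88 and 4.25 CPM in WT proliferation. For Parp3, Txnip and Hspb6 (a small heat shock protein) KO lay below WT without overlap in differentiation and above it without overlap in proliferation. Their log2 differences were -1.50, -1.49 and -1.35 (edgeR adjusted p = 0.0218, 0.0249 and 0.0497).

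Ssc5d, Adamtsl3 and Matn2 completed the named lower genes, with log2 differences of -2.19, -1.61 and -1.37 (edgeR adjusted p = 0.0355, 0.0315 and 0.0484). Matn2, matrilin 2, had 23.2 and 19.5 CPM in KO and 30.2 and 38.2 CPM in WT differentiation, against 262 and 150.4 CPM in KO and 188 and 79.4 CPM in WT proliferation. It was called in neither condition alone, as were Lypd1, Ptp4a3 and Slco3a1, so those 4 passed only as a difference. Lypd1 and Slco3a1, and also Ccdc136, did not pass without KO or without WT proliferation 7 (highest edgeR adjusted p = 0.0726, 0.0615 and 0.128), and Myadm did not pass without KO or without WT proliferation 8 (highest edgeR adjusted p = 0.0739). Under 7 other settings that kept the block, Hspb6 passed in 3 and Klhdc8b and Ccdc136 in 4 each. Klhdc8b, Tmem176a and Ccdc136, named here after their values were seen, were also among the 33, with log2 differences between -1.07 and -0.89.

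Within each library number the difference had the same sign in all 38 genes, as it had in 62.0% of all tested genes. The fit calls genes that agree between these same pairs, so the first count follows from the choice of genes. For Agt it was -1.23 within number 7 and -1.24 within number 8, for Lss 1.10 and 1.09, and for Thrsp -1.57 and -1.46. Numbers differed most for Matn2 (-0.86 and -1.88), Aebp1 (-1.16 and -1.86) and Gsn (-0.92 and -1.61), where number 8 gave the larger size.

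**Figure D3:**
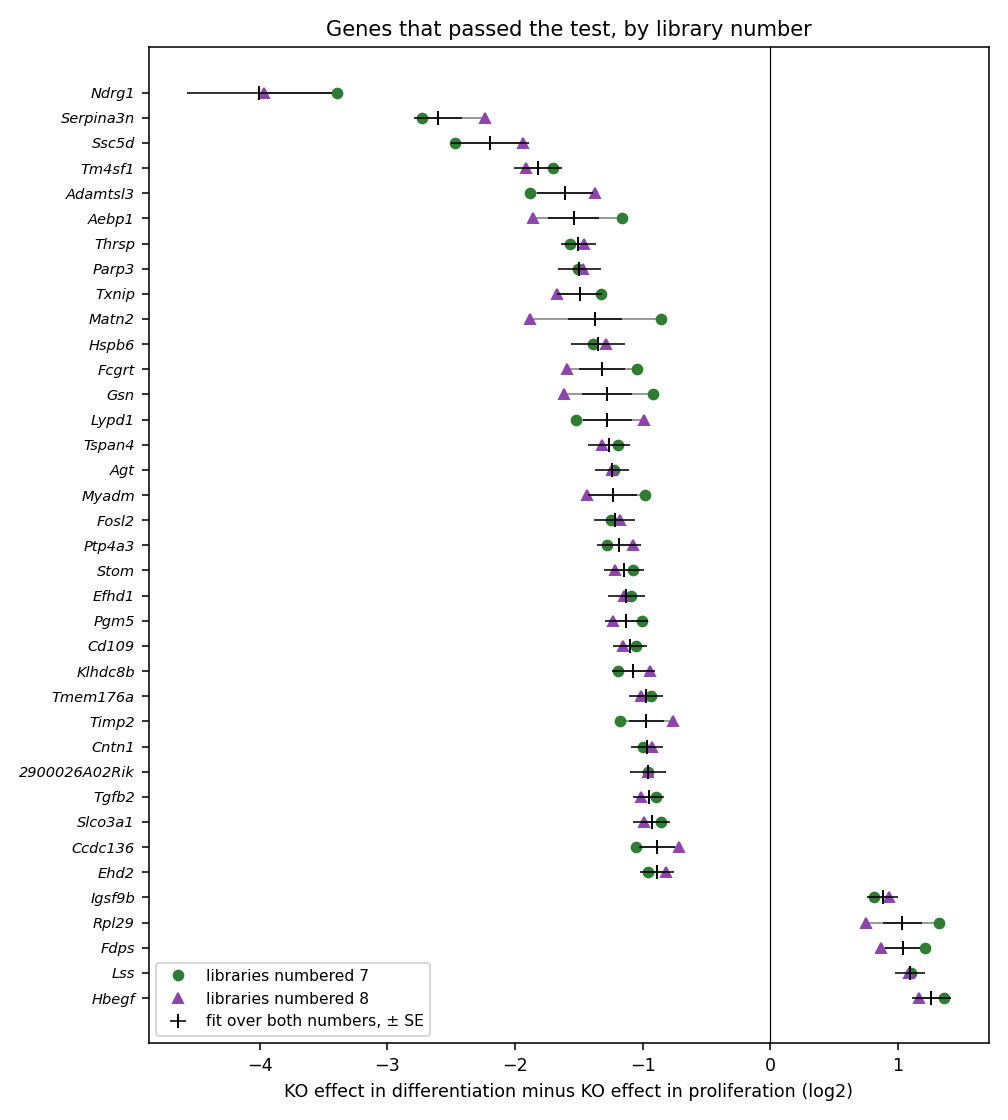
Log2 difference (KO effect in differentiation minus KO effect in proliferation) of 37 of the 38 genes that passed, from the 4 libraries numbered 7 (circles), the 4 numbered 8 (triangles) and the fit over both (black tick with ± SE). All circles and triangles of a gene lie on the same side of 0, with the gap between numbers widest for Matn2.

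The 5 genes called higher include a pair of cholesterol synthesis enzymes. Lss, lanosterol synthase, which closes the sterol rings (gene ID 16987, chromosome 10, 76531565 to 76557139), had 201 and 244 CPM in KO and 117 and 149 CPM in WT differentiation, and 130 and 73.3 CPM in KO and 164 and 95.4 CPM in WT proliferation. KO was above WT without overlap in differentiation (0.74, edgeR adjusted p = 0.009) and below WT within each number in proliferation, where groups overlapped (-0.35, edgeR adjusted p = 0.124). The log2 difference was 1.10 ± 0.12 (SE; edgeR adjusted p = 0.0201). Fdps, farnesyl diphosphate synthase, which makes the precursor of squalene (gene ID 110196, chromosome 3, 89093588 to 89101967), had 234 and 245 CPM in KO and 133 and 172 CPM in WT differentiation, and 271 and 174 CPM in KO and 355 and 222 CPM in WT proliferation. Its log2 difference was 1.04 ± 0.14 (SE; edgeR adjusted p = 0.0273).

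The other cholesterol genes leaned the same way without passing. Of 24 tested genes of synthesis and uptake, Lss and Fdps among them, 23 had a log2 difference above 0. In 18 of those the unadjusted p was under 0.05, with 0 below 0 at that p. Over all tested genes 6506 lay above and 6540 below 0, and 6.06% were higher at that p. That share of all tested genes rests on the block, with 791 higher genes with it and 209 without it. The list's own count at that p without the block is not given here, and genes of a list are not independent replicates. The median over the 24 was 0.47 (0.54 within number 7 and 0.47 within number 8), beside -0.0008 over all tested genes. The list's median KO effect was 0.27 in differentiation and -0.23 in proliferation. Acat2, Mvd, Idi1 and Cyp51, which span the route from acetyl-CoA to lanosterol demethylation, had log2 differences from 0.67 to 0.72 (edgeR adjusted p from 0.0605 to 0.0930). Of these, Mvd, Idi1 and Cyp51 fell outside the rule for named genes and were chosen after their values were seen. Srebf2, whose protein is the main transcription factor of these genes, was the 1 below 0 (-0.10, edgeR adjusted p = 0.748).

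**Figure D4:**
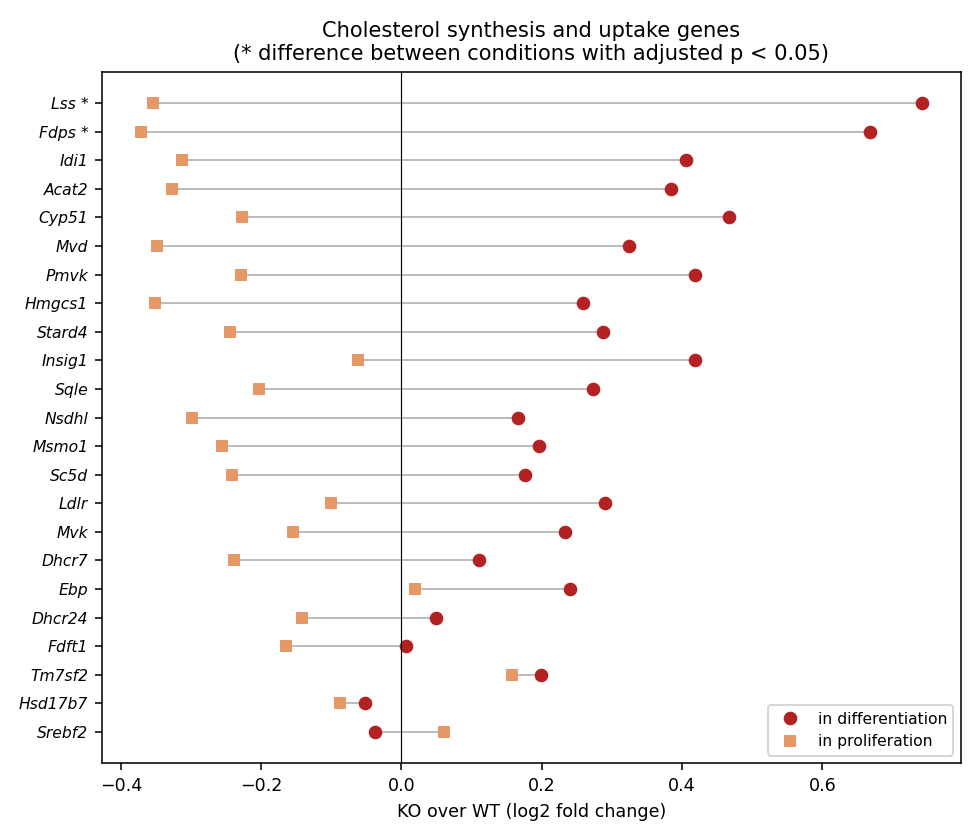
KO effect (log2 fold change KO over WT) of 23 of the 24 tested cholesterol synthesis and uptake genes in differentiation (circles) and in proliferation (squares), sorted by the difference between them. Circles lie right of the squares in 22 of the 23 genes drawn, and the asterisks mark Lss and Fdps, which passed the test of the difference.

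Promoters of 3 genes of the list, of which Lss passed the test and Hmgcs1 (log2 difference 0.61, edgeR adjusted p = 0.132) and Idi1 did not, are shown because a short sequence near the start is common to them. RefSeq promoter windows (GRCm38.p6, the 250 bases before the start annotated there) matched 17 of the 24 genes by gene ID. They matched 10440 of the 13046 tested genes. That start can differ from the gene start given above, as for Lss, whose window ends at 76531604, past the gene start at 76531565. The CCAAT box, the letters CCAAT on either strand, bound by the factor NF-Y, was present in 16 of the 17 (94.1%), against 41.2% of the matched tested genes and 33.8% of all 32851 windows of that length in the table. It is in capitals below, where it reads ATTGG on the strand of the gene, at chr10:76531355-76531604 (Lss), chr13:119690101-119690350 (Hmgcs1) and chr13:8885356-8885605 (Idi1), all on the plus strand.
Lss: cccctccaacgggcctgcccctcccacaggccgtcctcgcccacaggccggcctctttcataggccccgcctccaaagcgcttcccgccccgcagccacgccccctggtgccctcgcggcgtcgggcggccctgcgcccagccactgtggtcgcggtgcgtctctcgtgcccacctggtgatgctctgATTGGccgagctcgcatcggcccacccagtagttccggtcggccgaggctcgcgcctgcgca
Hmgcs1: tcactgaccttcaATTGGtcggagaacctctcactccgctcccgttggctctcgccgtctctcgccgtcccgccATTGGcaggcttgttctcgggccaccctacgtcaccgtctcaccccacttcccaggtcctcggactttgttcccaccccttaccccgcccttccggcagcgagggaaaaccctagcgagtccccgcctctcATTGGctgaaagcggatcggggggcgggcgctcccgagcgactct
Idi1: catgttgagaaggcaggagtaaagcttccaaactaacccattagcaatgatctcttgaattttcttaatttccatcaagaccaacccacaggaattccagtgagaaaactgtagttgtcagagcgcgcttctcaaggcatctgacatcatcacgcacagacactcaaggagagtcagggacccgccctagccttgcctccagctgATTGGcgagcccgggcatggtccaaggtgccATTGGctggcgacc

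The classical sterol regulatory element, searched as TCACNCCAC on both strands, was found in 1 of the 17, Hmgcs1, against 1.19% of matched tested genes. Among the 33 lower genes, 26 matched a window, and the CCAAT box was in 13 of them (50.0%). In the same 26, the TEAD motif CATTCC was in 3 (11.5%, against 12.8% of matched tested genes), the AP-1 motif TGANTCA in 0 (against 5.11%), and the STAT motif TTCCNGGAA in 1, Agt (against 1.23%), each on both strands. CATTCC and TTCCNGGAA can overlap by the letters TTCC. The presence of these letters describes the windows and does not show a site in use.

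The other 3 genes of the higher group were Hbegf, Rpl29 and Igsf9b. Hbegf encodes heparin-binding EGF-like growth factor, a ligand of the EGF receptor (gene ID 15200). It had 41.5 and 40.1 CPM in KO and 32.1 and 34.1 CPM in WT differentiation, and 6.23 and 25.1 CPM in KO and 12.4 and 48.0 CPM in WT proliferation. In proliferation the KO mean was 51.9% of the WT mean and lay below WT within each number, while the number 8 libraries were several times higher than the number 7 libraries and the groups overlapped there. The log2 difference was 1.26 ± 0.15 (SE; edgeR adjusted p = 0.027), of which the -0.96 in proliferation passed (edgeR adjusted p = 0.0118) and the 0.30 in differentiation did not (edgeR adjusted p = 0.189). Without the block and without WT proliferation 8 the sign turned (-0.025).

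Igsf9b, an adhesion molecule of inhibitory synapses, had 123 and 240.4 CPM in KO and 104 and 196 CPM in WT differentiation, and 14.0 and 37.3 CPM in KO and 20.9 and 58.0 CPM in WT proliferation. Both conditions overlapped, since numbers differed more than genotypes, and the log2 difference was 0.88 ± 0.12 (SE; edgeR adjusted p = 0.0355), which turned to -0.013 without the block and without WT proliferation 8. Rpl29, a protein of the large ribosomal subunit, had 241 and 196 CPM in KO and 140 and 142 CPM in WT differentiation, and 311 and 277 CPM in KO and 451 and 337 CPM in WT proliferation, with no overlap in either condition. The log2 difference of Rpl29 was 1.04 ± 0.15 (SE; edgeR adjusted p = 0.0363), and reads of near-identical ribosomal protein pseudogenes may be shared with it.

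The next 7 genes had the smallest unadjusted p among those not passing with a value above 0. They were Rpl31, Tub, Mt3, Acat2, Dusp6, Mfsd2a and Cables1 (edgeR adjusted p from 0.0551 to 0.0635). Mt3, metallothionein 3, had 365 and 269 CPM in KO and 336 and 244 CPM in WT differentiation, and 3.17 and 6.82 CPM in KO and 13.7 and 13.8 CPM in WT proliferation, with a log2 difference of 1.62 ± 0.26 (SE; edgeR adjusted p = 0.0575). Dusp6, a phosphatase that ERK signalling induces and that dampens it, had 9.11 and 3.27 CPM in KO and 5.11 and 1.88 CPM in WT differentiation, and 364 and 402 CPM in KO and 405 and 441 CPM in WT proliferation (log2 difference 0.96 ± 0.16, SE; edgeR adjusted p = 0.0605).

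Ribosomal protein genes leaned like Rpl29. Of 32 tested genes of a list that holds neither Rpl29 nor Rpl31, 31 had a log2 difference above 0 and 17 of them an unadjusted p under 0.05, while 0 passed. Over all tested genes 6506 of 13046 lay above 0 and 6.06% were higher at that p, which rests on the block (791 higher genes with it and 209 without it). The median was 0.34, with 0.47 within number 7 and 0.20 within number 8. The summed level of the list was 10300 and 10440 CPM in KO and 8771 and 9779 CPM in WT differentiation, and 18140 and 18160 CPM in KO and 21460 and 18890 CPM in WT proliferation. KO sums thus lay above WT in differentiation and below WT in proliferation, with the wider gap in number 7 in both conditions.

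Lysosome genes leaned the other way, with 22 of 24 tested genes below 0 and 16 of them at an unadjusted p under 0.05, and 0 passed. Over all tested genes 6540 of 13046 lay below 0 and 8.62% were lower at that p, which rests on the block (1125 lower genes with it and 349 without it). Their median was -0.34 (-0.35 within number 7 and -0.43 within number 8), made of a median KO effect of -0.18 in differentiation and 0.21 in proliferation. The list summed to 9120 and 8191 CPM in KO and 10730 and 9843 CPM in WT differentiation. In proliferation it summed to 5028 and 4432 CPM in KO and 4278 and 3811 CPM in WT. Its groups thus overlapped in neither condition, as in 11.0% of single tested genes. Cd63, a lysosomal and exosomal tetraspanin, came nearest with a log2 difference of -0.70 ± 0.12 (SE; edgeR adjusted p = 0.0646).

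Among the signalling lists, TGF-beta pathway genes had 13 of 16 tested genes below 0, a median of -0.44 and Tgfb2 as the called gene. The other ligand genes Tgfb3 and, outside the rule for named genes, Tgfb1 stood at -0.74 and -0.62 and did not pass (edgeR adjusted p = 0.155 and 0.537). Of the established YAP/TAZ-TEAD targets, 13 of 22 lay below 0, with a median of -0.11 (0.04 within number 7 and -0.12 within number 8) and again Tgfb2 alone called. In differentiation 4 of the targets were called lower in KO, among them Tgfb2, Myof (-1.70, edgeR adjusted p = 0.0266) and Ajuba (-0.76, edgeR adjusted p = 0.0256). KO and WT differentiation libraries of Myof and of Ajuba overlapped. The log2 differences of Myof and Ajuba were -1.64 and -0.62 and did not pass (edgeR adjusted p = 0.157 and 0.176). Hippo pathway components were split, with 14 of 28 above 0 and 0 called.

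Of the immediate early and ERK feedback genes, 17 of 24 lay below 0, with a median of -0.24 (-0.19 within number 7 and -0.06 within number 8) and 0 called. Fos, an AP-1 subunit, had 48.4 and 48.6 CPM in KO and 95.4 and 81.0 CPM in WT differentiation, without overlap, and 4.37 and 17.8 CPM in KO and 5.08 and 11.2 CPM in WT proliferation, with overlap. The log2 difference of Fos was -1.20 ± 0.25 (SE; edgeR adjusted p = 0.0941). Of interferon and antigen presentation genes, 14 of 18 lay below 0 (median -0.41), with Ifitm2 nearest to a call at -0.85 ± 0.14 (SE; edgeR adjusted p = 0.0593).

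Extracellular matrix genes had 24 of 34 below 0 (median -0.27) and Hox genes 25 of 27 (median -0.36), but the Hox median was -0.53 within number 7 and -0.08 within number 8. Amino acid and unfolded protein stress genes had 16 of 24 above 0 (median 0.22, with 0.36 within number 7 and 0.04 within number 8), among them Yars (tyrosyl-tRNA synthetase) at 0.69 and Atf4 at 0.59 (edgeR adjusted p = 0.0825 and 0.151). None of the members of these 3 lists passed. DNA replication genes had 25 of 30 above 0 with a median of 0.10, and 0 of them had an unadjusted p under 0.05.

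Cell type markers were mixed. Of 21 tested astrocyte markers 14 lay below 0 with Agt called, and the median was -0.20, with -0.58 within number 7 and 0.23 within number 8. S100b, a calcium-binding protein of glia, had 343 and 140.2 CPM in KO and 259 and 132 CPM in WT differentiation, and 71.0 and 41.6 CPM in KO and 28.7 and 19.8 CPM in WT proliferation (log2 difference -0.94 ± 0.15, SE; edgeR adjusted p = 0.0527). Its proliferation groups did not overlap. Neuron markers had 9 of 13 tested genes above 0 (median 0.40, with 0.32 within number 7 and 0.41 within number 8) and 0 called, and oligodendrocyte precursor markers 11 of 16 below 0 (median -0.20, with -0.41 within number 7 and -0.03 within number 8) with Cntn1 called. The precursor markers summed to 7254 and 7614 CPM in KO and 6706 and 6356 CPM in WT differentiation, and to 9487 and 8921 CPM in KO and 7635 and 7428 CPM in WT proliferation. Their sums were thus higher in KO without overlap in both conditions. Of single tested genes, 11.0% did not overlap in both, in either direction. Such sums weigh abundant genes most. By the fit, KO was below WT in 7 of the 16 markers in differentiation and in 3 in proliferation, against 6403 and 6552 of 13046 tested genes. The part of marker levels in the differences of single genes was not tested.

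**Figure D5:**
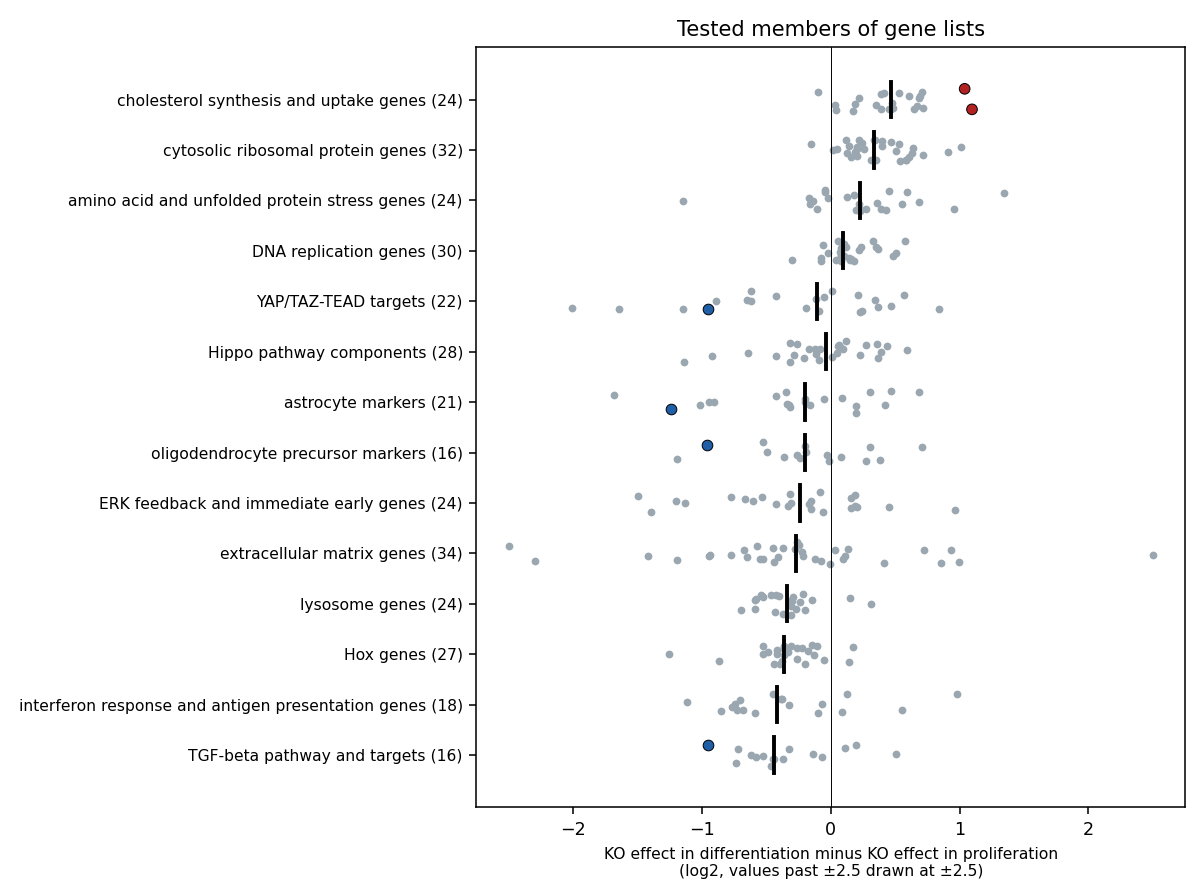
Log2 difference of each tested member of 14 gene lists (grey points, called members larger with red for higher and blue for lower), with a black bar at the list median and the number of tested members in brackets. Cholesterol and ribosomal protein genes lie mostly right of 0 and lysosome, Hox and TGF-beta genes mostly left of it, and the called members are Lss, Fdps, Tgfb2 (in both lists that hold it), Agt and Cntn1.

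Against the response to differentiation itself, 17 of the 33 lower genes had higher means in differentiation than in proliferation in both genotypes, 8 had lower means in both and 8 differed in direction between KO and WT. Among all 6540 tested genes below 0, 3444 had higher means in differentiation in both genotypes, a similar share. The 17 genes include Agt, Thrsp, Tgfb2, Serpina3n, Fcgrt and Cntn1. In all 33 lower genes, a smaller ratio of differentiation to proliferation in KO than in WT cells follows from choosing genes by the log2 difference. It is no separate result. Serpina3n was 1.19-fold higher in differentiation than in proliferation in KO cells and 7.64-fold higher in WT cells. For Tm4sf1 the differentiation mean was 0.552 of the proliferation mean in KO cells and 1.94 times that mean in WT cells.

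Over the 8 libraries, the levels most like those of Hbegf were those of Skil, Arl5b, Fbxo30, Prss23 and Elavl2 (Pearson r of log2 CPM from 0.952 to 0.965), and none of them passed the test of the difference. For Ndrg1 they were Junb, Mcam, Gfra2, Vasn and Mxra8 (r from 0.900 to 0.961), also without a call. All 8 points share culture condition and library number, so these values only describe the profiles.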

How the data were processed

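Per the labels' protocols, libraries of poly(A) RNA kept the strand (dUTP) and were read by DNBSEQ sequencing. The deposited table gives estimated counts per gene (expected counts, 6.07% to 6.75% of values not whole, counting any decimal part above 0) that the authors made without normalisation; for the aligner, the counter and the use of strand, nothing is given in the sources used here. The table names 16927 genes and holds 1 further line with no gene (not used), and 12 per-library columns of 4 libraries that match no label were not used. Positions are as deposited; 85.4% of 16878 genes matched by ID have the start of RefSeq's GRCm38.p6, so they are given as GRCm38, although the submitters' processing notes name another build.

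Counts were rounded and genes kept with filterByExpr on the 4 groups (13046, or 77.1%). The difference was tested, two-sided, with edgeR 4.0.16 (R 4.3.3; TMM, robust quasi-likelihood fit). The model held genotype within condition and a block for each replicate number within a condition (6 coefficients, 2 residual degrees of freedom, median prior degrees of freedom 6.92), which the comparison prescribed. The biological coefficient of variation was 8.62% with the block and 24.1% without it. The 7-minus-8 deviations correlated at 0.703 and 0.784 between KO and WT of 1 condition and at 0.538 to 0.576 across conditions. Exchanging the 2 libraries of a group would only turn the sign of these values, so they cannot establish that numbers pair the samples. With 2 libraries per group, a permutation test of 1 gene cannot reach 0.05. Values within a number used log2 CPM with a prior count of 2. The script was tested on simulated counts.

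Named genes were Yap1, Wwtr1 and up to 12 in each direction by size among those called, filled up by p where fewer passed. Those 12 needed a mean of at least 5 CPM in a group and the same sign in both numbers. Up to 3 members of each of 35 gene lists were added, of which a selection is given. Sex-linked genes were not named, nor were predicted gene models except 2900026A02Rik. Further genes, among them 2900026A02Rik, Mvd, Idi1, Cyp51, Hmgcs1, Srebf2 and Tgfb1, were named outside these rules. The comparison, the lists and these rules were chosen with earlier results of these data known. Alternatives were other blocks, scalings and filters, DESeq2 1.42.0, limma-voom (limma 3.58.1), an edgeR fit without robust estimation, and leaving out each library. Some genes are counted but not named or drawn by name, and their results are not reported here.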

Additional observations from a re-analysis of the deposited data

Results flagged for a closer look

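These results were singled out because the KO effect differed between culture conditions by the test of the difference itself (edgeR with the block, adjusted p under 0.05), and 0 of them passed without the block. The log2 difference was above 0 for Hbegf (1.26), Lss (1.10), Fdps (1.04), Rpl29 (1.04) and Igsf9b (0.88). It was below 0 for Ndrg1 (-4.00), Serpina3n (-2.60), Ssc5d (-2.19), Tm4sf1 (-1.82), Adamtsl3 (-1.61), Aebp1 (-1.54), Thrsp (-1.50), Parp3 (-1.50), Txnip (-1.49), Matn2 (-1.37), Hspb6 (-1.35), Fcgrt (-1.32), Agt (-1.24), Cntn1 (-0.96) and Tgfb2 (-0.95). Groups of 2 libraries were too small for a test of single outlying libraries.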

How the results depend on the processing

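The count of 5 higher and 33 lower genes depended on the block and on the tool. Without the replicate block 0 and 0 genes passed, and with a replicate block shared by both conditions 0 and 0 passed, while DESeq2 with the block called 40 higher and 117 lower genes, no filter on low counts gave 34 and 107, and limma-voom with the block gave 5 and 21. DESeq2's size factors (6 and 36), library totals only (5 and 31), a filter of 5 CPM in 2 libraries (5 and 26) and a fit without robust estimation (6 and 36) stayed within 1.5 times. Leaving out 1 library gave 23 to 905 higher and 93 to 949 lower genes with the block, and 0 in both directions in each of the 8 cases without it, so the whole range is 0 to 905 and 0 to 949. Such a fit leaves the partner library without a pair and 1 residual degree of freedom fewer; the cause of the larger counts was not tested. Under the other tools, scalings and filters with the block within each condition, all 5 higher genes and 21 to 33 of the 33 lower genes were called. Leaving out a library without the block turned the sign of Hbegf (-0.025) and Igsf9b (-0.013) and, among genes that did not pass, of Mfsd2a (-1.10 and -2.23), Tub (-0.88), Myof (0.096 and 0.34), Fzd9 (0.051) and Fos (0.034). Scaling moved the median of all genes by less than 0.01. Depth limits genes such as Ndrg1, whose KO differentiation libraries lay below 1 CPM.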

Other observations

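Further genes of the lists, none of which passed the test of the difference, add values outside the groups above. Mki67, a marker of dividing cells, was low in differentiation, where it had 0.285 and 0.696 CPM in KO and 1.12 and 1.72 CPM in WT, against 606 and 548 CPM in KO and 545.5 and 655 CPM in WT proliferation (log2 difference -1.47 ± 0.40, SE; edgeR adjusted p = 0.166). Of 30 mitosis genes 18 lay below 0, with a median of -0.27. Cspg4, the NG2 proteoglycan of oligodendrocyte precursors, had 71.5 and 103 CPM in KO and 53.4 and 79.0 CPM in WT differentiation, and 191 and 194 CPM in KO and 99.0 and 108 CPM in WT proliferation. KO was called higher in proliferation (0.90, edgeR adjusted p = 0.0047) and was on the high side in differentiation without passing (0.40, edgeR adjusted p = 0.0587). The log2 difference of -0.50 ± 0.12 (SE) did not pass (edgeR adjusted p = 0.132).

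Bmp3, a BMP-family ligand, was called higher in KO in both conditions, with 8.94 and 7.66 CPM in KO and 4.43 and 3.81 CPM in WT differentiation and 36.2 and 33.1 CPM in KO and 9.85 and 11.1 CPM in WT proliferation. Its KO effect was 1.01 in differentiation and 1.73 in proliferation on the log2 scale, and the log2 difference of -0.72 ± 0.21 (SE) did not pass (edgeR adjusted p = 0.199). Piezo1, a mechanically gated channel, had 7.80 and 7.12 CPM in KO and 12.9 and 12.8 CPM in WT differentiation, and 66.3 and 63.5 CPM in KO and 63.0 and 68.2 CPM in WT proliferation (log2 difference -0.77 ± 0.16, SE; edgeR adjusted p = 0.0972). Itga6, the integrin alpha 6 subunit, lay the other way, with 217 and 266 CPM in KO and 242 and 256 CPM in WT differentiation and 78.0 and 74.6 CPM in KO and 132 and 122 CPM in WT proliferation (log2 difference 0.69 ± 0.13, SE; edgeR adjusted p = 0.0682). Of the 35 lists, 29 had 0 called members.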
